A study of Mus musculus with 20 samples.

Results

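Thymic intraepithelial lymphocyte precursors (IELPs) outside the CD122 and T-bet gates were compared between a mouse in which C-myc was deleted in T cells and a mouse with intact floxed alleles. The cells were those of every well whose recorded sort type began with CD122-T-bet-, in 2 libraries of TBGR C-myc Δ/ΔCd4 cells and 4 libraries of TBGR C-myc fl/fl cells, and a cell was kept if it held at least 2000 transcripts of genes other than mitochondrial genes and spike-ins. This left 248 cells of 384 wells, out of 1413 cells of 1920 wells in the whole series. They were 128 cells of the C-myc Δ/ΔCd4 mouse, 58 and 70 per library, and 120 cells of the C-myc fl/fl mouse, 31, 35, 28 and 26 per library. The main comparisons were repeated on the 135 cells without a Trdc, Rag1, Rag2 or Dntt transcript.

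TBGR mice carry a ZsGreen reporter of T-bet, and both C-myc genotypes were bred onto this background, were sampled from thymus at 2 weeks of age and were depleted of CD4+ and CD8+ thymocytes before the sort. The C-myc Δ/ΔCd4 mouse carried a Cd4-driven Cre transgene with both C-myc alleles floxed, so deletion begins where Cd4 becomes active, in the thymus at the double positive stage, and a cell that never passed that stage is not a target of the Cre. The C-myc fl/fl mouse had the floxed alleles without the Cre. A wild type TBGR mouse of 4 weeks gave 174 further CD122-T-bet- cells in 2 libraries, and the CD122+T-bet- cells of both C-myc mice, 259 in all, were sorted and processed in the same way, the fl/fl ones in the same 4 libraries. The series' design text names 1 mouse for a genotype, while the study's text speaks of mice, and as no source assigns libraries to separate mice they are treated here as portions of 1 mouse. No test was possible, the intervals given cover counting error only, and differences of genotype, mouse and library cannot be told apart.

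C-Myc is a basic helix-loop-helix transcription factor that binds E-boxes, with CACGTG as its preferred sequence, as a dimer with Max. In lymphocytes it is known for driving the genes of ribosome assembly, translation, glycolysis and nucleotide supply, and for pushing resting cells into the cell cycle. CD122, the beta chain of the interleukin-2 and interleukin-15 receptors, and T-bet, encoded by Tbx21, are acquired late by IELPs, so the CD122-T-bet- gate holds the earliest of the sorted cells. The sort was on TCRβ+ cells without CD4 and CD8, a gate that should remove γδ T cells and thymocytes that lack an αβ receptor on their surface. Transcripts of Trdc (the constant region of the δ chain of the T cell receptor), of Rag1 and Rag2 (the recombinase that assembles receptor genes) and of Dntt (terminal transferase, active during that assembly) are known from γδ and immature thymocytes, and are called immature or γδ transcripts below. The name is that of the transcripts and not a cell type.

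The genes of the gate were rare in both genotypes. Il2rb, the gene of CD122, was detected in 2 of 128 C-myc Δ/ΔCd4 cells and 7 of 120 C-myc fl/fl cells, against 69 of 137 and 73 of 122 CD122+T-bet- cells. Tbx21 gave 1 transcript in the C-myc Δ/ΔCd4 cells and 0 in the fl/fl cells. The B cell gene Cd79a was found in 0 of 128 and 0 of 120 cells, which limits the share of cells with a detected transcript to 2.84% and 3.03% (exact 95% interval) and not the share of such cells. Of the marker lists of B cells, myeloid or dendritic cells, erythroid cells and thymic epithelium at most 1 gene each had enough transcripts to be tested, with 0 called in all cells (Ighm, Cst3 and, for epithelium, Psmb11 with 28 and 54 transcripts). The 1 tested gene of epithelium was called lower without immature or γδ cells (log2 ratio -1.48) and without Mki67+ cells (-1.78). In these cell sets 11.0% and 11.1% of all tested genes were called lower. Trac, the constant region of the α chain, was found in 32 of 128 cells (25%) of the C-myc Δ/ΔCd4 mouse, 5 of 120 (4.17%) of the fl/fl mouse and 75 of 174 (43.1%) of the TBGR mouse. In the CD122+T-bet- cells the same low Trac share marked the fl/fl mouse (6 of 122 cells, against 47 of 137 in the C-myc Δ/ΔCd4 mouse).

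The libraries differed in depth and in the share of their transcripts that came from predicted genes, which were mostly the single repeat-like gene Gm10800 (237115 transcripts in the C-myc Δ/ΔCd4 cells and 347035 in the fl/fl cells). Predicted genes took 47.1% and 40.0% of the transcripts in the C-myc Δ/ΔCd4 libraries and 43.5, 65.4, 51.1 and 69.7% in the fl/fl libraries 1 to 4. The median cell held 4041 and 4304 transcripts in the C-myc Δ/ΔCd4 libraries and between 5566 and 7145.5 in the fl/fl libraries. Counting only genes that are not predicted ones, the medians were 1810 and 2164.5 against 1936, 1898, 2114.5 and 925. Levels are therefore given as scaled TPM (transcripts per 1000000, with no correction for length), where each library is scaled so that its median gene is level with that of the others. Relative to total transcripts the median gene itself lay 0.457 higher in the C-myc Δ/ΔCd4 cells on the log2 scale. C-myc fl/fl library 2 stood apart in cell composition and library 4 in depth, and results that rest on them are marked. The nuclear RNA Malat1 was also higher in both C-myc Δ/ΔCd4 libraries (4035 and 2917 scaled TPM) than in the fl/fl libraries (1333, 2490, 1206 and 1295), and higher again in the TBGR cells (log2 ratio of C-myc Δ/ΔCd4 over TBGR cells -0.56). Of the 6 tested genes of a list on RNA quality, 1 was called higher and 1 lower by the rule given below (median log2 ratio -0.55). Across all tested genes 7.59% were called higher and 5.71% lower. The part of Malat1 and of this list in the results was not tested.

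Cells with immature or γδ transcripts were more frequent after C-myc deletion. A Trdc, Rag1, Rag2 or Dntt transcript was present in 76 of 128 C-myc Δ/ΔCd4 cells (59.4%, 95% interval 50.3 to 68.0) and in 37 of 120 C-myc fl/fl cells (30.8%, 22.7 to 39.9). By library, the share was 67.2% and 52.9% in the C-myc Δ/ΔCd4 mouse and 45.2, 17.1, 32.1 and 30.8% in the fl/fl mouse. Both C-myc Δ/ΔCd4 libraries lay above all 4 fl/fl libraries, although the intervals of C-myc Δ/ΔCd4 library 2 and fl/fl library 1 overlapped. The older TBGR mouse had 36 such cells of 174 (20.7%). A marker of mature conventional T cells was rarer in the C-myc Δ/ΔCd4 cells. Ms4a4b was found in 2 of 128 C-myc Δ/ΔCd4 cells (1.56%) and 30 of 120 fl/fl cells (25%), with 0 and 2.86% against 6.45, 42.9, 35.7 and 11.5% by library, and Klf2, a regulator of thymic exit, had a log2 ratio of -0.91 with overlapping libraries. Ms4a4b did not follow the immature or γδ share by library, since fl/fl libraries 3 and 4 had similar shares (32.1 and 30.8%). In CD122+T-bet- cells it was also rarer, in 1 of 137 C-myc Δ/ΔCd4 cells against 35 of 122 fl/fl cells. All 3 tested genes of the list of mature conventional T cells, which does not hold Ms4a4b, lay below the median gene (median log2 ratio -0.97). Of them 1 was called lower by the rule given below, against 5.71% of all tested genes. The part of these genes in the difference was not tested.

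**Figure D1:**
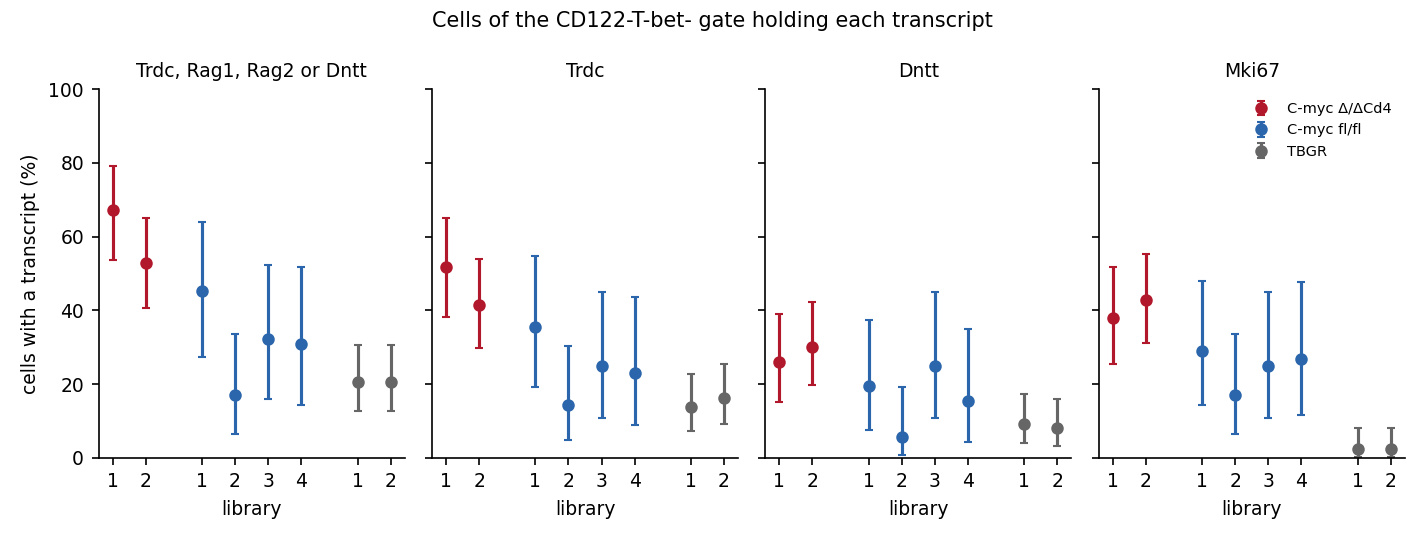
Share of CD122-T-bet- cells (%, vertical axis) with at least 1 transcript of any of Trdc, Rag1, Rag2 or Dntt, of Trdc, of Dntt and of Mki67, for each library (horizontal axis), with exact 95% binomial intervals as bars. In each panel both C-myc Δ/ΔCd4 libraries lie above the 4 C-myc fl/fl libraries and above the 2 TBGR libraries.

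The shares of Trdc and Dntt showed the same order, and those of Rag1 and Rag2 did not. Trdc was found in 51.7% and 41.4% of the cells of the C-myc Δ/ΔCd4 libraries and in 35.5, 14.3, 25 and 23.1% of the cells of the fl/fl libraries. Dntt was found in 25.9% and 30% against 19.4, 5.71, 25 and 15.4%. Rag1 was rarer, in 14 of 128 cells (10.9%) against 7 of 120 (5.83%), with 10.3% and 11.4% against 3.23, 2.86, 7.14 and 11.5% by library. Rag2 was found in 6 of 128 (4.69%) and 5 of 120 cells (4.17%). The CD122+T-bet- fl/fl cells in the same libraries held Trdc in 5 of 122 cells (4.10%) and Dntt in 0 of 122, at median depths of 3298 to 6923 transcripts per library. The C-myc Δ/ΔCd4 libraries held no other gate, so background from free RNA was not measured in them, and the CD122+T-bet- C-myc Δ/ΔCd4 cells of separate libraries held Trdc in 23 of 137 cells (16.8%). Trdc and Dntt occurred together in 24 of the 128 C-myc Δ/ΔCd4 cells and in 12 of the 120 fl/fl cells. Trdc and Trac occurred together in 10 of the 59 Trdc+ C-myc Δ/ΔCd4 cells, 2 of the 29 Trdc+ fl/fl cells and 15 of the 26 Trdc+ TBGR cells, so a Trdc transcript did not exclude one of Trac.

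The C-myc Δ/ΔCd4 cells were the shallower ones in total transcripts, while in transcripts of genes other than predicted genes the medians of the libraries overlapped. After each cell was thinned to 2000 transcripts, the share of cells with an immature or γδ transcript was 44.2% against 21.1% (the exact expectation over draws). It was 51.9% and 37.8% in the C-myc Δ/ΔCd4 libraries, above the 14.9 to 27.3% of the fl/fl libraries. After thinning to 1000 transcripts of genes other than predicted genes, which left 116 of the 128 and 94 of the 120 cells, it was 46.3% against 24.04%. In this last count C-myc fl/fl library 4, with 11 cells deep enough, reached 57.4%, above C-myc Δ/ΔCd4 library 2 with 37.6%, so the libraries overlapped.

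Summed levels gave the same picture for Dntt and a less clear one for Trdc. Dntt reached 286 and 201 scaled TPM in the C-myc Δ/ΔCd4 libraries and 88.6, 40.4, 148 and 125 in the fl/fl libraries. The libraries did not overlap, and the log2 ratio was 1.17 (95% counting interval 0.78 to 1.59). Trdc reached 354 and 266 against 177, 128, 60.3 and 428, so that fl/fl library 4 lay above both C-myc Δ/ΔCd4 libraries. Its log2 ratio of 0.85 became 1.29 without fl/fl library 4 and 0.48 without fl/fl library 3. Of the other genes of double positive thymocytes, Arpp21 (log2 ratio 0.97) and Themis (1.11), which promotes positive selection, were higher without overlap. Cd4 ran the other way, in 18 of 128 cells (14.1%) of the C-myc Δ/ΔCd4 mouse, 41 of 120 (34.2%) of the fl/fl mouse and 164 of 174 (94.3%) of the TBGR mouse, and its log2 ratio was -1.65, with overlapping libraries. Of the 10 tested genes of the double positive list, Dntt, Arpp21 and Themis were called higher by the rule given below, which 7.59% of all tested genes met, and 0 lower (median log2 ratio 0.72), and of the 7 tested γδ genes 0 were called (median 0.58). Of 15 early double negative genes such as Il2ra and Ptcra 4 were tested and 0 called (median 0.17), and their summed level overlapped (224 and 343 scaled TPM against 425, 114, 329 and 366). Rag1, with 20 transcripts in each genotype, was under the limit for testing.

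Transcripts of the deleted gene itself were few. Myc gave 19 transcripts in the C-myc Δ/ΔCd4 cells and 34 in the fl/fl cells, and was seen in 12 of 128 and 15 of 120 cells. The levels were 15.5 and 24.7 scaled TPM in the C-myc Δ/ΔCd4 libraries and 57.6, 20.2, 64.9 and 41.8 in the fl/fl libraries. C-myc Δ/ΔCd4 library 2 thus exceeded fl/fl library 2, and the log2 ratio was -1.20 (-2.11 to -0.36). Leaving out single libraries moved it between -1.53 and -0.97. In the CD122+T-bet- cells of the same mice it was -2.07. The fl/fl and C-myc Δ/ΔCd4 cells without an immature or γδ transcript held too few Myc transcripts to compare, with 0 in C-myc Δ/ΔCd4 library 2 and in fl/fl library 4. Which part of the transcript the deletion removes is not given in the sources used here, and CEL-Seq2 reads the 3′ end, so the remaining transcripts do not measure functional C-Myc.

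A gene was tested if it had at least 50 transcripts over both genotypes, and called if its ratio, relative to the median gene, was at least 1.5-fold and both C-myc Δ/ΔCd4 libraries lay on the same side of all 4 fl/fl libraries. Of 3677 genes tested, 210 were called lower (5.71%) and 279 higher (7.59%) in the C-myc Δ/ΔCd4 cells, and the middle 80% of log2 ratios ran from -0.68 to 0.66. Predicted genes made up 43 of the lower and 8 of the higher calls. The split depended on the scale. Of the calls, 57.1% were higher as given, 95.7% when levels were taken relative to all transcripts (42 lower and 924 higher) and 66.5% relative to all transcripts without predicted genes (170 lower and 338 higher). Directions below are relative to the median gene.

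**Figure D2:**
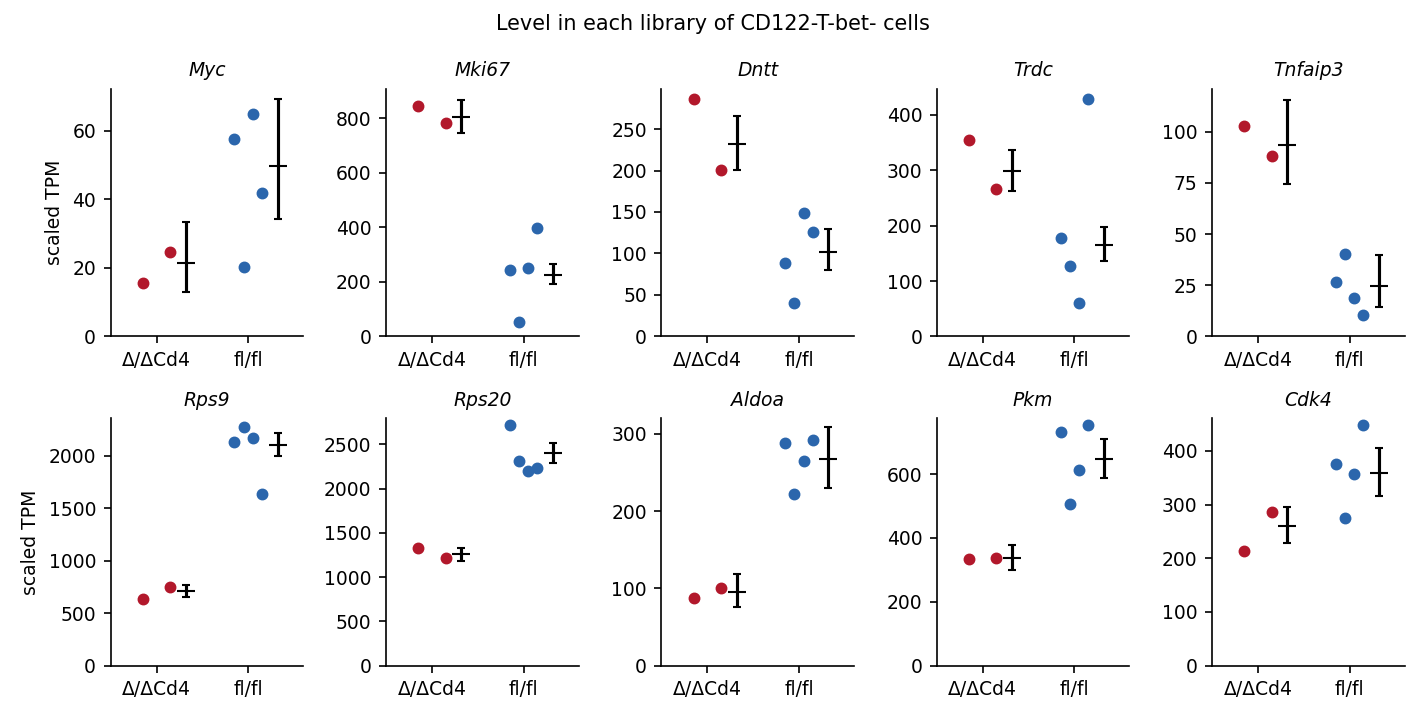
Level of 10 genes in each library of CD122-T-bet- cells (scaled TPM, vertical axes starting at 0), with each point 1 library, the horizontal tick the level over all cells of the genotype and the bar its 95% counting interval. Rps9, Rps20, Aldoa and Pkm lie lower and Mki67, Dntt and Tnfaip3 higher in both C-myc Δ/ΔCd4 libraries than in any C-myc fl/fl library, while Myc, Trdc and Cdk4 overlap.

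Among the gene lists, that of the cytosolic ribosome held the most genes called lower, although a larger share of the glycolysis list was called (30.8%). Of 72 ribosomal protein genes tested, 70 had a ratio below that of the median gene, 34 were lower without overlap of libraries and 20 of these (27.8%) also passed 1.5-fold, with 0 called higher. Of all genes tested, 7.89% were lower and 11.3% higher without overlap. The median log2 ratio of the list was -0.35 relative to the median gene and -0.30 relative to all transcripts without predicted genes, but 0.10 relative to all transcripts, where 1 gene was called lower. The summed level of the list was 45451 and 50927 scaled TPM in the C-myc Δ/ΔCd4 libraries and 69284, 65878, 71514 and 60348 in the fl/fl libraries, without overlap. Without C-myc Δ/ΔCd4 library 2 the count of lower calls rose to 32 and the median fell to -0.51.

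Rps9, a protein of the small subunit, showed the largest difference of the list. It reached 637 and 748 scaled TPM in the C-myc Δ/ΔCd4 libraries and 2126, 2274, 2166 and 1630 in the fl/fl libraries, a log2 ratio of -1.57 (-1.71 to -1.43). Rps20, also of the small subunit, had 1334 and 1216 against 2719, 2315, 2198 and 2235 (log2 ratio -0.93, -1.04 to -0.82). Rpl10a of the large subunit had 743 and 931 against 1656, 1494, 1535 and 1567. In all 3 genes the gap between the genotypes was wider than the spread within either. Rpl4 was lower without overlap but short of 1.5-fold (-0.58), and Rpsa overlapped through fl/fl library 4. Reads that fit several loci were discarded by the authors, so ribosomal protein genes with processed pseudogenes can be undercounted, which was not measured here.

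Factors that assemble ribosomes were also among the lower genes. Of 41 genes of ribosome biogenesis and the nucleolus, 6 were called lower (14.6%, against 5.71% of all tested genes) and 0 higher, with a median log2 ratio of -0.27 that became 0.19 relative to all transcripts. These were Nop10, a protein of the H/ACA particles that modify ribosomal RNA, Wdr12 and Pes1, partners in the complex that matures the large subunit, Mybbp1a, a nucleolar partner of Myb, Wdr43 of the small subunit processome, and the helicase Ddx18. Nop10 reached 49.7 and 79.2 scaled TPM against 172.7, 94.2, 213.3 and 177.6 (log2 ratio -1.30, -1.77 to -0.84). The 2 most abundant members overlapped between genotypes, Npm1 through fl/fl library 2 and Ncl through libraries 2 and 4. Npm1, the chief nucleolar chaperone, had 1079 and 1479 against 2391, 794, 2629 and 2424 (log2 ratio -0.67), and Ncl, nucleolin, 833 and 1229 against 1368, 404, 1331 and 1191 (-0.05). The list summed to 4579 and 6494 against 8268, 4058, 8662 and 8148, so that it did not overlap with fl/fl libraries 1, 3 and 4 and overlapped with library 2.

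**Figure D3:**
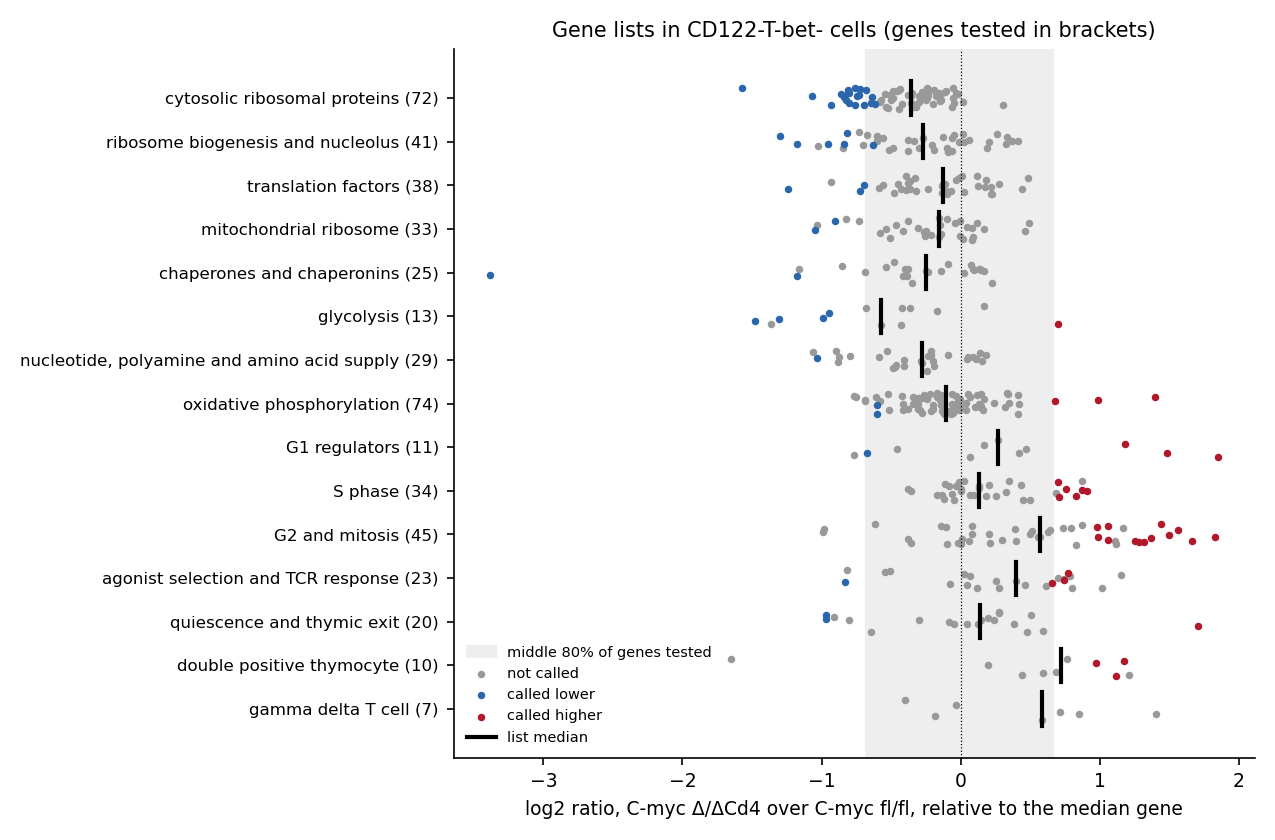
Log2 ratio of C-myc Δ/ΔCd4 over C-myc fl/fl cells relative to the median gene (horizontal axis) for the tested genes of 15 lists (vertical axis), with black bars for list medians and a grey band for the middle 80% of all genes tested. Ribosomal protein genes lie mostly below 0 on this scale (median -0.35), but relative to all transcripts every ratio is 0.457 higher, which turns the medians of ribosomal proteins (0.10), ribosome biogenesis (0.19), translation factors, mitochondrial ribosome, chaperones, nucleotide supply and oxidative phosphorylation above 0. Of the 45 tested genes of G2 and mitosis 36 lie above 0 and 9 below relative to the median gene (median 0.57, and 1.03 relative to all transcripts).

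Because C-Myc binds the E-box, promoters of members called lower in the lists of growth were searched for CACGTG, which reads the same on both strands. The windows run from 250 bases before to 50 bases after the gene start in the RefSeq annotation of GRCm38.p6. The motif was present in 12.5% of the 2753 tested genes with a window, in 8.82% of 136 genes called lower and in 10% of 210 called higher. It was present in 10 of 34 ribosome biogenesis genes (29.4%), 6 of 52 ribosomal protein genes (11.5%), 2 of 13 glycolysis genes and 0 of 37 genes of G2 and mitosis. A match describes these letters in this window and does not show binding. Of the 38 list members called lower, 31 had a window and 4 of these carried it, and their windows are shown 5′ to 3′ with the motif in capitals, Pes1 at chr11:3963725-3964024 on the plus strand, Mybbp1a at chr11:72441077-72441376 on the plus strand, Wdr43 at chr17:71615965-71616264 on the plus strand and Rpl23 at chr11:97782390-97782689 on the minus strand.
Pes1: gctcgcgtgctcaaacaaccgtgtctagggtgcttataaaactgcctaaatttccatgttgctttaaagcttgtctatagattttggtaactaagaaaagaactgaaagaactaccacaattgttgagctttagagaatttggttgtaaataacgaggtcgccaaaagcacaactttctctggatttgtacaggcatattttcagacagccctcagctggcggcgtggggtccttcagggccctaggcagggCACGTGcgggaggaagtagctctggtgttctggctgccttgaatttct
Mybbp1a: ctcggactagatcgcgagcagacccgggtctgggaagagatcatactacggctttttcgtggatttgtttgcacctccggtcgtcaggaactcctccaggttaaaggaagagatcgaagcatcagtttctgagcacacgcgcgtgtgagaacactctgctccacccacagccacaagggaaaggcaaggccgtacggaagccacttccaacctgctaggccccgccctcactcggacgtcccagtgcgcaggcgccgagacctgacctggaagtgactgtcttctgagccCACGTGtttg
Wdr43: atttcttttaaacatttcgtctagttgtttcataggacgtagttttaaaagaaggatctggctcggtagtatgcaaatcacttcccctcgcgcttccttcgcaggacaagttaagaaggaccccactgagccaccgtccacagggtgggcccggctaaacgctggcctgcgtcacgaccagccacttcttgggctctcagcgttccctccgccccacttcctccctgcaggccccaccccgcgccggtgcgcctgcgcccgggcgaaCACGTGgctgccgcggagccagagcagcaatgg
Rpl23: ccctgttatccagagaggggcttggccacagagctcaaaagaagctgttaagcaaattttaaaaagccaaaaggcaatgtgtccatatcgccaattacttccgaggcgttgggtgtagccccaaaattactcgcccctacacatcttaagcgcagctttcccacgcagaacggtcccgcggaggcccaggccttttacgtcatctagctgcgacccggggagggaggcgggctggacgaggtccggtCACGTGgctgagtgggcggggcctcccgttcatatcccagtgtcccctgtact

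In expression, these 4 genes had log2 ratios of -0.95 (Pes1), -0.84 (Mybbp1a), -0.81 (Wdr43) and -0.69 (Rpl23). Mybbp1a reached 43.5 and 95.1 scaled TPM in the C-myc Δ/ΔCd4 libraries and 141.7, 100.9, 166.9 and 114.9 in the fl/fl libraries. Wdr43 had 83.9 and 70.4 against 146.1, 94.2, 134.5 and 156.7. The gaps to the nearest fl/fl library were small in both genes.

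Glycolysis had a median log2 ratio of -0.58 over 13 tested genes (-0.12 relative to all transcripts), below the medians of the other lists tied to growth, and of these genes 4 were called lower (30.8%, against 5.71% of all tested genes) and 1 higher (7.69%, against 7.59%). Aldoa, the aldolase that splits fructose bisphosphate, had 87.0 and 100.3 scaled TPM in the C-myc Δ/ΔCd4 libraries and 287.9, 222.1, 264.3 and 292.5 in the fl/fl libraries (log2 ratio -1.48, -1.87 to -1.10). Pgam1, phosphoglycerate mutase, had 109 and 114 against 292.3, 175, 329 and 292.5 (-1.31). Pkm, pyruvate kinase, had 333 and 338 against 731, 505, 612 and 752 (-0.95). None of the 3 overlapped, and Pfkp, a phosphofructokinase, was also called lower (-0.99). Ldha, lactate dehydrogenase A, was lower without overlap but under 1.5-fold (528 and 516 against 859, 585, 765 and 898, log2 ratio -0.58), whereas Ldhb, which favours pyruvate formation, was called higher (0.70). The list summed to 1890 and 2068 against 3565, 2685, 3167 and 3510.

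In other groups tied to growth the share of lower calls was near the 5.71% of all tested genes. Of 38 translation factors 3 were called lower (7.89%; Eif1a, Eif2s1 and Eif3g, all of initiation) and 0 higher, with a median of -0.13 (0.33 relative to all transcripts). Eif5a (-0.59) and Eef1b2 (-0.56), an elongation factor and an exchange factor of elongation, were not called, Eif5a because fl/fl library 2 was as low as the C-myc Δ/ΔCd4 libraries. Of 33 mitochondrial ribosome genes 2 were called lower (Mrpl47 and Mrps35), of 25 chaperones 2 (Hspa8 and Pfdn2) and of 29 genes of nucleotide, polyamine and amino acid supply 1, Slc3a2, a subunit of amino acid transporters (-1.03, but 0.103 without immature, γδ and Mki67+ cells). The medians were -0.16, -0.25 and -0.28, with 0 higher calls in any of the 3, and turned to 0.30, 0.21 and 0.18 relative to all transcripts. Hspa8, a constitutive heat shock protein, had the most extreme ratio among the tested genes of all lists (10 transcripts against 84, log2 ratio -3.38), and is named here because of that value. Hspe1, the mitochondrial co-chaperonin, had 121 and 248 scaled TPM against 496, 195, 464 and 731 and overlapped with fl/fl library 2. Oxidative phosphorylation stayed near the median gene, with 2 lower and 3 higher calls of 74 and a median of -0.10 (0.35 relative to all transcripts). Of the 6 tested genes of the Myc network 0 were called.

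Transcripts of dividing cells were more abundant in the C-myc Δ/ΔCd4 cells. Mki67, the proliferation marker Ki-67, was found in 52 of 128 cells (40.6%, 32.04 to 49.7) against 29 of 120 (24.2%, 16.8 to 32.8), and in 4 of 174 cells (2.30%) of the TBGR mouse. By library the shares were 37.9% and 42.9% against 29.0, 17.1, 25 and 26.9%. The level was 846 and 783 scaled TPM against 243.6, 53.8, 250.4 and 397, a log2 ratio of 1.83 (1.58 to 2.09) without overlap, and 1.55 without fl/fl library 2. After thinning to 2000 transcripts Mki67 was expected in 29.95% against 14.8% of cells, with 26.4% and 32.9% in the C-myc Δ/ΔCd4 libraries and 17.6, 7.75, 17.4 and 18.01% in the fl/fl libraries. After thinning to 1000 transcripts of genes other than predicted genes it was expected in 32.1% against 16.1%, where both C-myc Δ/ΔCd4 libraries (28.3% and 34.9%) lay below the 35.1% of the 11 cells left in fl/fl library 4.

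Of 45 tested genes of G2 and mitosis, 13 were called higher (28.9%, against 7.59% of all tested genes) and 0 lower, with a median log2 ratio of 0.57. The count fell to 6 with the mean of cell shares and to 2 in 1 draw of 2000 transcripts per cell. In that draw 979 genes in all were tested, against 3677. They included Top2a (1.06), the topoisomerase that untangles sister chromatids, Kif23 (0.98), a kinesin of cytokinesis, Cdca3 (1.499, but -1.138 without Mki67+ cells), which triggers mitotic entry, and Tacc3 (1.44), which stabilises spindle fibres. Cdca3 had 80.8 and 98.6 scaled TPM against 35.4, 0, 37.1 and 62.7, and Tacc3 143 and 95.1 against 84.1, 0, 18.6 and 52.2. Neither was found in fl/fl library 2. Cdk1, the kinase that drives mitosis, did not differ beyond the spread of libraries (140 and 116 against 168, 13.5, 88.1 and 345, log2 ratio -0.11), and Plk1 and Ccnb1 were not called either. The list summed to 8732 and 8244 against 7440, 1850, 5110 and 8660, so fl/fl library 4 fell between the C-myc Δ/ΔCd4 libraries. Without fl/fl library 2 the median of the list fell to 0.28.

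Earlier cell cycle genes were mixed. Of 34 S phase genes 6 were called higher (17.6%, against 7.59% of all tested genes) and 0 lower, among them Pcna (168 and 190 scaled TPM against 84.1, 40.4, 153 and 125, log2 ratio 0.83), the sliding clamp of replication, and Rrm1 (0.76, but -0.306 without Mki67+ cells) and Rrm2 (0.71), the subunits of ribonucleotide reductase. The median of 0.13 became -0.02 without fl/fl library 2. Of 11 G1 regulators 3 were called higher (27.3%), Ccne1 (1.85) and Ccnd3 (1.18), cyclins of the G1 to S transition and of G1, and Cdkn2d (1.48), an inhibitor of Cdk4 and Cdk6. E2f1, a transcription factor of S phase entry, was called lower (-0.67). Cdk4 itself had 214.5 and 287 against 376, 276, 357 and 449 and overlapped with fl/fl library 2 (log2 ratio -0.46).

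An immature or γδ transcript was held by 40 of 52 Mki67+ cells (76.9%, 63.2 to 87.5) of the C-myc Δ/ΔCd4 mouse and 16 of 29 (55.2%, 35.7 to 73.6) of the fl/fl mouse. By library these were 18 of 22 and 22 of 30 cells against 6 of 9, 1 of 6, 6 of 7 and 3 of 7, so in fl/fl libraries 2 and 4 most Mki67+ cells held none. Among cells with such a transcript, Mki67 was found in 40 of 76 (52.6%, 40.8 to 64.2) and 16 of 37 (43.2%, 27.1 to 60.5). Among cells without one it was found in 12 of 52 (23.1%, 12.5 to 36.8) and 13 of 83 (15.7%, 8.61 to 25.3). Within each class the intervals of the genotypes overlapped. The classes also differed in depth, with medians of 2216 and 3962 transcripts of genes other than predicted genes in cells with such a transcript and 1722 and 1567 in cells without. Thinned to 2000 transcripts, the expected Mki67 shares were 40.6% and 30.9% in the first class and 14.4% and 7.59% in the second.

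**Figure D4:**
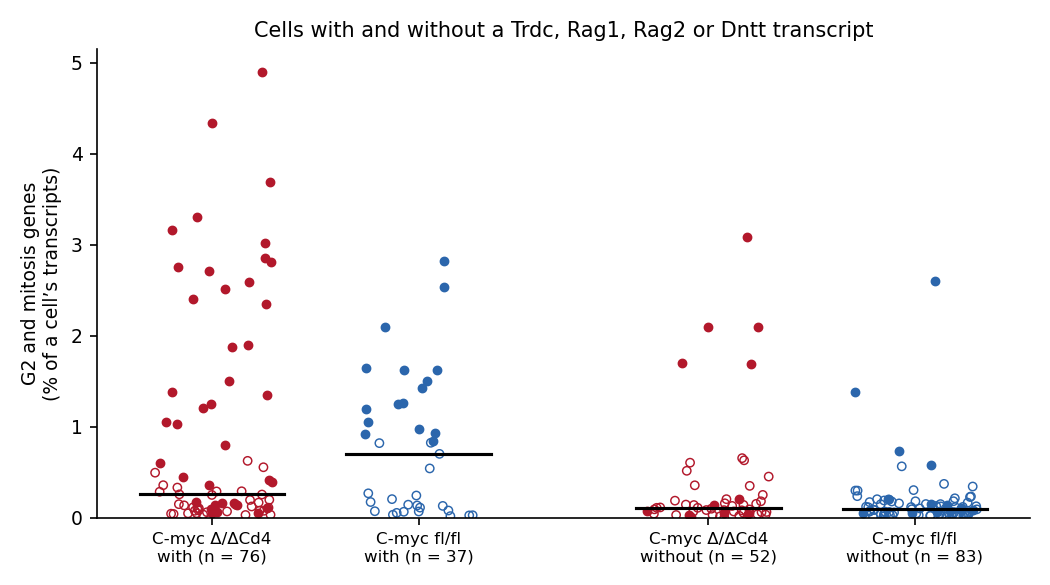
Share of each cell's transcripts from genes of G2 and mitosis (%, vertical axis) in CD122-T-bet- cells with and without a Trdc, Rag1, Rag2 or Dntt transcript, for both genotypes, with each point 1 cell, filled points cells with a Mki67 transcript and lines medians. Cells above 1% occur in all 4 classes. The classes differ in size, so numbers of points do not compare the genotypes. They hold 76 C-myc Δ/ΔCd4 and 37 fl/fl cells with such a transcript, and 52 and 83 cells without.

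The transcripts of G2 and mitosis genes made up 1.26% of all transcripts in C-myc Δ/ΔCd4 cells with an immature or γδ transcript and 0.976% in the fl/fl cells of this class. By library these were 1.11 and 1.38% against 1.20, 0.246, 0.889 and 1.05%, with overlap. In cells without one the shares were 0.415% and 0.153%. By library this last class had 0.452 and 0.399% in the C-myc Δ/ΔCd4 mouse and 0.198, 0.108, 0.140 and 0.213% in the fl/fl mouse, without overlap. As a share of transcripts of genes other than predicted genes, the values were 1.15 and 1.05% against 0.557, 0.331, 0.481 and 1.23%, where fl/fl library 4 lay above both C-myc Δ/ΔCd4 libraries.

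The lower level of ribosomal protein genes was also present in the cells without immature or γδ transcripts. In these 135 cells, 19 and 33 against 17, 29, 19 and 18 per library, 1018 genes were tested, with 112 called lower (11.0%) and 98 higher (9.63%). Of 68 ribosomal protein genes, 28 were called lower and 0 higher. Their median log2 ratio was -0.86 and stayed below 0 relative to all transcripts (-0.44), while the same 68 genes had a median of -0.40 in all cells. The summed level was 25124 and 16597 scaled TPM against 36949, 40712, 35756 and 25455, where fl/fl library 4 came close to C-myc Δ/ΔCd4 library 1. Rps9 had 405 and 317 against 1206, 1354, 1200 and 734 (log2 ratio -1.81), and Rps20 950 and 424 against 1751, 1463, 1253 and 1101 (-1.28). Both stayed without overlap.

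Of 7 glycolysis genes tested in these cells 3 were called lower, against 11.0% of all genes tested in them. Aldoa (-1.504) and Pgam1 (-1.58) were called in all cells too, Ldha (-0.62) was called here alone, and Pkm (-0.52) was no longer called. Of the genes of growth, Npm1 (-0.67), Eif5a (-0.79) and Hspe1 (-1.42) were called lower here although not in all cells, while the initiation factor Eif1 (0.69) and Mrpl18 (1.10), the single mitochondrial ribosome gene tested, were called higher. Npm1 had 448 and 308 scaled TPM against 638, 450, 587 and 734. Of 9 tested genes of G2 and mitosis, 2 were called higher, against 9.63% of all genes tested in these cells (median log2 ratio 1.20). Mki67 (245 and 280 against 34.8, 27.1, 44.4 and 257) overlapped with fl/fl library 4. Without all Mki67+ cells, 11.1% of 1373 tested genes were called lower and 11.7% higher. There 37 of 68 ribosomal protein genes were called lower (median -0.78, and -0.28 relative to all transcripts). Of the 4 tested genes of G2 and mitosis 1 was called higher, while their median was -0.43 (0.08 relative to all transcripts). Gzma, the protease granzyme A, differed in the cells without immature transcripts (log2 ratio 3.66) and not in all cells (0.05), but the value came from C-myc Δ/ΔCd4 library 1 (800 scaled TPM), since library 2 had 42.0 against 0, 21.7, 0 and 91.8 in the fl/fl libraries.

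Genes of agonist selection, the strong self-reactive T cell receptor signal that directs thymocytes to the IEL fate, were called in both directions. Of 23 tested, 3 were called higher (13.04%, against 7.59% of all tested genes) and 1 lower (4.35%, against 5.71%), with 18 above the median gene and a median log2 ratio of 0.40. The counts of higher calls depended on the cells, and so did the share over all tested genes. In cells without immature or γδ transcripts 5 of 18 were called higher, against 9.63% of all genes tested there (median 0.54, 0 lower). Without Mki67+ cells 10 of 21 were called higher, against 11.7% (median 0.68, 0 lower). Gata3, a transcription factor of T cell commitment and selection, had 339 and 387 scaled TPM against 217, 303, 111 and 313 (log2 ratio 0.77), and Tox (0.75) and Myb (0.66) were the other higher genes. Nfkb1, the p105 precursor of NF-κB, was called lower (-0.83, but 0.016 without immature, γδ and Mki67+ cells). Nr4a1, which encodes Nur77, had 99.5 and 153 against 57.6, 114, 74.2 and 73.1 and overlapped with fl/fl library 2. Ikzf2, which encodes Helios, had 354 and 292 against 323, 612, 139 and 125 (0.07), Pdcd1, which encodes PD-1, 43.5 and 47.5 against 53.1, 40.4, 46.4 and 31.3 (0.02) and Id3 87.0 and 100.3 against 163.9, 148.0, 92.7 and 146.2 (-0.50). None of these 4 was called. The agonist list summed to 3758 and 3556 against 2666, 4946, 2574 and 2674, with fl/fl library 2 above and the other 3 below.

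Genes of survival and of thymic exit varied without a common direction. Bcl2, an inhibitor of apoptosis, had 252 and 215 scaled TPM against 120, 424, 148 and 73.1 and overlapped (log2 ratio 0.28). Of 8 survival genes 1, the p53 target Trp53inp1 (0.67), was called higher (12.5%, against 7.59% of all tested genes). Among the genes of quiescence and thymic exit reported here, Bach2 (a repressor that keeps lymphocytes naive, -0.96) was called lower and Klf6 (1.70) higher. Klf6 had 149 and 127 against 44.3, 53.8, 27.8 and 41.8, without overlap. Of 11 immediate early genes 0 were called, with a median of 0.00, and of 11 interferon response genes 1, Ifi47 (-1.23), was called lower (9.09%, against 5.71%), counts of 1 gene each. Only 3 genes of the T-bet and IEL effector programme were tested, and 0 of them called.

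Beyond the lists, 15 genes per direction were named by size of the ratio among called genes with at least 100 transcripts. On the higher side Ccdc88a, which encodes the actin-binding protein girdin, led with 146 and 91.5 scaled TPM against 26.6, 26.9, 4.64 and 10.4 (log2 ratio 2.62, 1.80 to 3.67). Tnfaip3, which encodes the NF-κB inhibitor A20, had 103 and 88.0 against 26.6, 40.4, 18.6 and 10.4 (1.88, 1.15 to 2.76). Fbxo5, an inhibitor of the anaphase-promoting complex, had 140 and 137 against 48.7, 13.5, 46.4 and 73.1 (1.64). Hmgn2, a nucleosome-binding protein, had 326 and 331 against 88.6, 74.0, 172 and 115 (1.51), and Ifngr1, a chain of the interferon-γ receptor, 174 and 130 against 62.0, 101, 27.8 and 52.2 (1.31). None of the 5 overlapped. The other higher genes were Mki67, the linker histone Hist1h1e, Klf6, the pseudogene Rpl21-ps4, Cdca3, Tacc3, Arap2, Ide, Mllt10 and Med13, with log2 ratios of 1.29 to 1.83.

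On the lower side Mapkbp1, a scaffold of MAP kinase signalling, led with 93.3 and 56.3 scaled TPM against 248, 242, 153 and 449 (log2 ratio -1.81, -2.26 to -1.39). Polr1d, a subunit shared by RNA polymerases I and III, had 103 and 73.9 against 190, 175, 190 and 282 (-1.24, -1.67 to -0.83). Trmt112, an activator of methyltransferases that modify tRNA and ribosomal RNA, had 106 and 81.0 against 221, 175, 144 and 282 (-1.12). Tomm5 of the mitochondrial import pore (-1.28) and Pdhb of the pyruvate dehydrogenase complex (-1.15) were also lower. The remaining lower genes were Rps9, Aldoa, Pgam1, Nop10, Ifi47, D8Ertd738e, Tmem220, Nsfl1c, Slc38a6 and Ube2n, with log2 ratios of -1.72 to -1.07. Tmem220 and Slc38a6 were highest in fl/fl libraries 4 and 2, the libraries with the largest shares of predicted genes, and their part in these values was not tested.

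Relative to the median gene, the CD122+T-bet- cells of the same mice shared the lower ribosomal and glycolytic levels and differed in the cell cycle. Of 4201 genes tested there, 750 were called lower (17.9%) and 728 higher (17.3%). The median log2 ratio of ribosomal protein genes was -1.18, with 62 of 73 called lower, against -0.35 in the CD122-T-bet- cells, each over the genes tested in that gate. For ribosome biogenesis the medians were -1.29 and -0.27, for translation factors -0.82 and -0.13, for chaperones -1.05 and -0.25 and for glycolysis -1.04 and -0.58, in that order. Relative to all transcripts the CD122+T-bet- medians of these lists lay between -1.17 and -0.70. On that scale the CD122-T-bet- medians were 0.10 for ribosomal proteins, 0.19 for ribosome biogenesis, 0.33 for translation factors, 0.21 for chaperones and -0.12 for glycolysis. The lower ribosomal level was thus shared on 1 scale only. Relative to the median gene, the CD122+T-bet- and CD122-T-bet- medians were -2.34 and 0.57 for G2 and mitosis and -1.39 and 0.13 for the S phase. Mki67 had 76.0 and 56.2 scaled TPM in the CD122+T-bet- C-myc Δ/ΔCd4 libraries against 529, 473, 322 and 163 in the fl/fl libraries, the reverse of the order in the CD122-T-bet- cells. Mki67 was found there in 17 of 137 cells (12.4%) against 55 of 122 (45.1%), and immature or γδ transcripts in 24 of 137 (17.5%) against 5 of 122 (4.10%). The difference between the gates was not tested, since each rests on the same 2 mice.

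**Figure D5:**
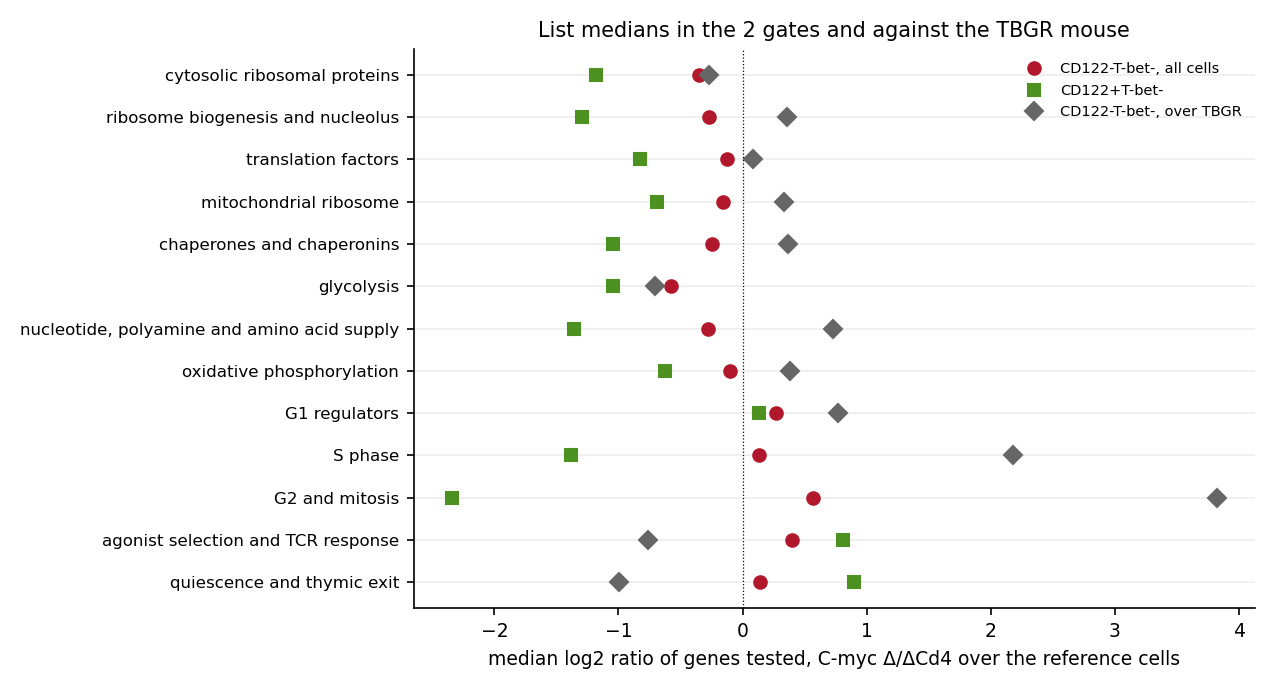
Median log2 ratio over the tested genes of 13 lists (horizontal axis) for C-myc Δ/ΔCd4 over C-myc fl/fl cells in the CD122-T-bet- and CD122+T-bet- gates and for C-myc Δ/ΔCd4 over TBGR cells in the CD122-T-bet- gate, each relative to its median gene. Ribosomal proteins (-0.35, -1.18 and -0.27) and glycolysis lie below 0 in all 3, where relative to all transcripts the medians of the first comparison shift up by 0.457, to 0.10 for ribosomal proteins and 0.19 for ribosome biogenesis, while G2 and mitosis lies at 0.57, -2.34 and 3.82.

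Set against the 4-week-old TBGR mouse, the same C-myc Δ/ΔCd4 cells gave another order of levels, with age differing as well as genotype. Ribosomal protein genes had a median log2 ratio of -0.27 and glycolysis of -0.70, and both stayed below 0 relative to all transcripts (-0.43 and -0.87). Rps9 (-1.30), Aldoa (-0.76) and Pkm (-1.03) kept their direction. Ribosome biogenesis (0.36) and chaperones (0.36) lay above the median gene, as did translation factors (0.09, but -0.08 relative to all transcripts), with Npm1 at 1.04 and Eif5a at 0.95. G2 and mitosis had a median of 3.82 and the S phase of 2.18, and genes of agonist selection of -0.76. The summed level of G2 and mitosis genes was 1898 and 1673 scaled TPM in the TBGR libraries, close to the 1850 of fl/fl library 2 and below the other C-myc libraries. Myc itself was higher in the C-myc Δ/ΔCd4 than in the TBGR cells on this scale (log2 ratio 1.05), at the low counts given above.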

How the data were processed

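Single thymocytes sorted into wells were sequenced by CEL-Seq2. The submitters' processing notes name BWA 0.6.2-r126 and bcl2fastq 2.17.1.14. Per the study's methods, the authors mapped reads to mouse GENCODE VM9 transcripts grouped by gene, discarded reads that fit several loci and counted UMIs of 6 bases. The deposited values are expected counts, UMI numbers that the authors converted to transcripts by a binomial correction for 4096 possible UMIs. Undoing it gave whole UMIs for 100% of 1423085 values above 0 (tolerance 0.01), and values were rounded. The sort type of a well came from the deposited well lists, and the sources differ on whether the NK1.1 gate was positive or negative. Each well held 1 sorted cell, so no doublet caller was run, and libraries reused well barcodes by design (fl/fl libraries 1 and 3 share 96). A limit of 2% Kcnq1ot1 removed no cell.

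Transcripts were summed per library (Python 3.11.15, NumPy 2.4.6, pandas 2.3.3, SciPy 1.17.1). The 6 sums ran from 163987 to 466555. Sums were scaled by the median gene and 0.5 was added before a ratio. A gene was tested with at least 50 transcripts. Intervals are exact (Poisson, conditional binomial, Clopper-Pearson) at 95% and cover counting error only. Shares at a fixed depth are exact hypergeometric expectations. They replaced single random draws after 2 draws were seen to differ. Among the alternatives, calls and ratios after thinning come from 1 draw. The calling script was tested on simulated data.

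The members and lists were chosen with earlier results of these data known. The rule named, in each direction, the 15 largest ratios among called genes with at least 100 transcripts that are not predicted genes, the study's genes and markers, and from each list up to 4 genes by ratio and 2 by transcripts. Called list members beyond these, Hspa8 and the promoters shown were chosen after their values were seen. So were the scale used for the overlap of libraries, the list of early double negative genes, and the alternatives that leave out predicted genes or all immature, γδ and Mki67+ cells. Other alternatives covered depth, scale, thresholds, cell classes and single libraries. 1 gene of the list of quiescence and thymic exit is not reported here.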

Additional observations from a re-analysis of the deposited data

Results flagged for a closer look

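In 5 of 42 sets of 4 C-myc fl/fl values, 1 library lay far from the other 3, where chance gives about 1 in 20. It was library 2 each time. The gap as a share of the range was 0.888 for ribosome biogenesis, 0.842 for the mitochondrial ribosome and 0.836 for chaperones, where library 2 was lowest, and 0.958 for agonist selection and 0.843 for immediate early genes, where it was highest. Library 2 also held the fewest cells with immature or γδ transcripts (6 of 35) and with Mki67 (6 of 35), and these values move with the list sums. Their part was not tested.

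For 9 of 134 named genes both C-myc Δ/ΔCd4 libraries lay above the fl/fl libraries in CD122-T-bet- cells and below them in CD122+T-bet- cells. The log2 ratios in the 2 gates were 1.83 and -2.69 for Mki67, 1.64 and -1.97 for Fbxo5, 1.499 and -2.50 for Cdca3, 1.44 and -2.11 for Tacc3, 0.91 and -1.61 for Atad2, 0.83 and -0.84 for Pcna, 0.76 and -1.53 for Rrm1, 0.71 and -3.02 for Rrm2 and 0.68 and -0.79 for Ndufs5. All but Ndufs5, of respiratory complex I, belong to the cell cycle. The named genes were chosen partly by their ratio in this contrast and include members of the cell cycle lists. The make-up of the 9 genes therefore cannot be read as a result. Opposite calls over all genes tested in both gates were not counted. The difference between gates was not tested.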

How the results depend on the processing

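No paired analysis was possible because libraries with the same number came from different mice and no test was run. Of the 133 named genes followed, 53 were called, and 4 of these changed sign under some setting. Without Mki67+ cells, Cdca3 was at -1.138 and Rrm1 at -0.306. Without cells holding a Trdc, Rag1, Rag2, Dntt or Mki67 transcript, Cdca3 was at -1.922, Slc3a2 at 0.103 and Nfkb1 at 0.016 (log2 ratios).

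Genes called lower and higher numbered 210 and 279. They were 112 and 98 without immature or γδ cells, 104 and 99 without these and Mki67+ cells, 117 and 118 in 1 draw of 2000 transcripts per cell, 394 and 548 with at least 20 transcripts, 49 and 60 with at least 200, 423 and 1790 with at least 1, 42 and 924 relative to all transcripts, 42 and 902 relative to all transcripts without ribosomal protein genes, 78 and 104 at 2-fold and 471 and 458 with no condition on libraries. Without Mki67+ cells 160 were higher, and with the mean of cell shares 349 were lower. The number of genes tested changed too, from 3677 to 1018 without immature or γδ cells and 687 without these and Mki67+ cells. It was 1373 without Mki67+ cells, 979 in the draw, and 6893, 738 and 20964 with at least 20, 200 and 1 transcripts. The shares called lower and higher were 5.71% and 7.59% as given, and 11.0% and 9.63% without immature or γδ cells.

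Ribosomal protein genes called lower (20) became 37 without Mki67+ cells, 34 after thinning, 45 with the mean of cell shares, 12 with a TMM style scale, 2 at 2-fold and 1 with at least 1 transcript and relative to either total. Their median of -0.355 became -0.785, -0.697 and -0.803 in the first 3 settings, -0.859 without immature or γδ cells, -0.869 without these and Mki67+ cells, -0.057 with at least 1 transcript, and 0.103 and 0.102 relative to the totals.

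Genes of G2 and mitosis called higher (13) became 1 without Mki67+ cells, with or without the immature or γδ cells, 2 without the latter and after thinning, 6 with the mean of cell shares, 3 with at least 200 transcripts, 21 with at least 1 and relative to either total, and 22 with no condition on libraries. Genes of this list tested were 45 as given, 4 without Mki67+ cells and 9 without immature or γδ cells, so these counts do not compare directly. Mki67 is itself a member, so leaving out Mki67+ cells removes cells by a gene of the list. Relative to the 2 totals 924 and 902 of all 3677 tested genes were called higher. The log2 ratio of Myc was -1.909 after thinning. The difference in the share of Mki67+ cells (16.46 percentage points) was 24.78 with at least 3000 transcripts per cell and 7.414 without immature or γδ cells. Thinned to 2000 transcripts its expectation was 15.18, while 100 single draws ran from 6.562 to 22.86.

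Without immature or γδ cells, 112 and 98 calls became 285 and 277 with at least 20 transcripts, 22 and 258 relative to all transcripts and 219 and 164 with no condition on libraries, and 72 were lower with the TMM style scale.

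Leaving out single libraries gave 205 to 314 lower and 297 to 379 higher calls, 16 to 32 (the highest without C-myc Δ/ΔCd4 library 2) lower ribosomal protein genes with medians of -0.508 to -0.329, and 12 to 19 higher genes of G2 and mitosis with medians of 0.279 (without fl/fl library 2) to 0.796. Between 2379 and 3480 genes were tested in these settings. The causes were not tested. Transcripts per spike-in were not computed here. Depth limited Myc, Rag1 and the class without immature transcripts.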
